A study of Arabidopsis thaliana with 2 samples.

Results

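GRP7 (AT2G21660, also CCR2) and GRP8 (AT4G39260, also CCR1) of Arabidopsis thaliana encode closely related RNA-binding proteins, each with an RNA recognition motif and a glycine-rich tail. The LHY binding regions at both genes were taken by a position rule. A region belonged to a gene if its midpoint lay inside the gene or within 2000 bp of either end. This gave 5 regions of the 14718 in the list, 1 at GRP7 and 4 at GRP8. None of these regions was chosen by its score, but the genes were chosen with earlier results of these data known.

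The regions come from chromatin immunoprecipitation and sequencing (ChIP-seq) using an antiserum to the whole LHY protein, a clock transcription factor of the MYB type. Whole seedlings aged 2 weeks were taken 2 h after dawn. The groups were wild-type Ws plants and lhy-21 plants of the same ecotype, in which LHY is knocked out. Each was 1 library made from 9 pooled immunoprecipitations. The list holds places with more reads in wild type than in lhy-21, so no replicate spread exists, no test between genotypes was possible, and the loss of LHY in lhy-21 was not checked here.

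GRP7 and GRP8 are classic outputs of the plant clock, and their transcripts accumulate toward the evening. LHY accumulates around dawn and represses many evening genes together with its relative CCA1. The GRP7 protein binds its own transcript and that of GRP8 and favours splice forms that are degraded, so that the pair forms a feedback loop downstream of the core clock. GRP7 also promotes flowering, lowers the level of the floral repressor FLC, and takes part in immune and cold responses.

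Both genes had a strong LHY region at the same side, the end with the higher chromosome coordinate. The region at GRP7 scored 62.5 and the strongest at GRP8 scored 75.0, on the authors' own scale, for which the sources used here give no unit. The median over the list was 10.1 and the range 2.00 to 213. Which end of either gene is the transcription start was not determined, since strand was not used here.

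At GRP7, the single region lay on chromosome 2 from 9265843 to 9266860 (TAIR9) and was 1018 bp wide. Its midpoint was inside the gene, 206 bp from the higher-coordinate end. Of its bases, 715 lay in GRP7 and 303 beyond that end. It covered 48.5% of the gene and left the other end free. The region reached 52 bp into a tRNA gene, AT2G21670, and whether reads of that repeated gene class touched the score was not tested. It ranked 854 of 14718, so that 5.80% of regions scored higher.

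The strongest region at GRP8 was narrower, with a higher score. It lay on chromosome 4 from 18274995 to 18275581, was 587 bp wide and ranked 544, with 3.69% of regions above it. Its midpoint was 72 bp outside the higher-coordinate end, and it held 222 bp of the gene and 365 bp beyond it. Set against GRP7, its score was 1.20 times as high, a difference that cannot be held against any replicate error.

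GRP8 had 3 further regions, all weaker. The region from 18273476 to 18274029 scored 6.01, was 554 bp wide, and had its midpoint 77 bp outside the lower-coordinate end. A region from 18275809 to 18276273 scored 3.97 and was centred 825 bp beyond the higher-coordinate end. The last, from 18276385 to 18276597, scored 14.7 and was centred 1275 bp beyond that end, inside the neighbouring gene AT4G39270. Thus the gene had a dominant region at its higher-coordinate end and a weak one at its lower-coordinate end, with 2 more in the space toward and in the next gene.

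**Figure D1:**
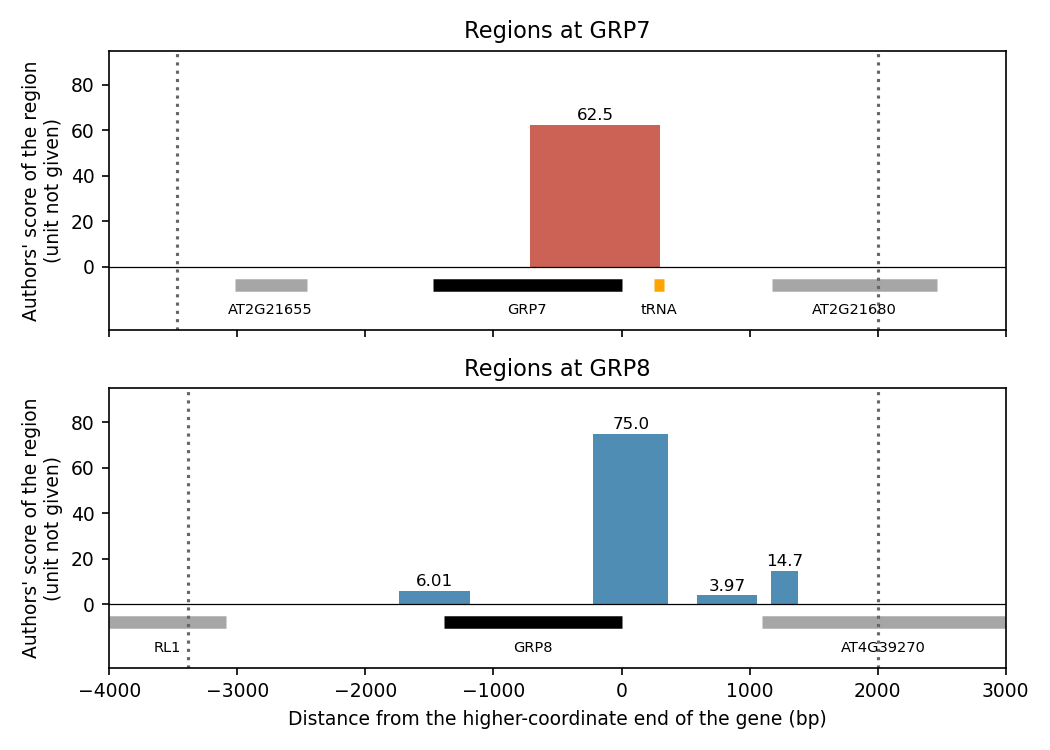
Regions at GRP7 (top) and GRP8 (bottom), drawn as bars whose width is the region's width and whose height is the authors' score. The x axis is the distance in bp from the higher-coordinate end of each gene. Black bars below 0 are GRP7 and GRP8, grey bars are other protein-coding genes, the orange bar is a tRNA gene, and dotted lines mark 2000 bp from the ends. The tallest region of each gene, at 62.5 for GRP7 and 75.0 for GRP8, spans its higher-coordinate end.

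A region within 2000 bp is common. It was found at 14348 of 27444 protein-coding genes (52.3%), so its presence at both genes is close to the background and says little by itself. The height of the scores is less common. GRP7 and GRP8 each had a region among the 1000 strongest of the list, against 6.07% of all genes. A top score at least as high as that of GRP7 was found at 5.29% of all genes, and one at least as high as that of GRP8 at 3.50%. Both genes were chosen with earlier results of these data known, so these shares are a description.

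Among genes with a region, the median top score was 15.7 and the upper quartile 33.8. GRP7 stood at the 89.9th percentile and GRP8 at the 93.3rd. Within 100 kb on either side, the GRP7 region was second of 15 regions in score, and the strongest GRP8 region was second of 51.

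**Figure D2:**
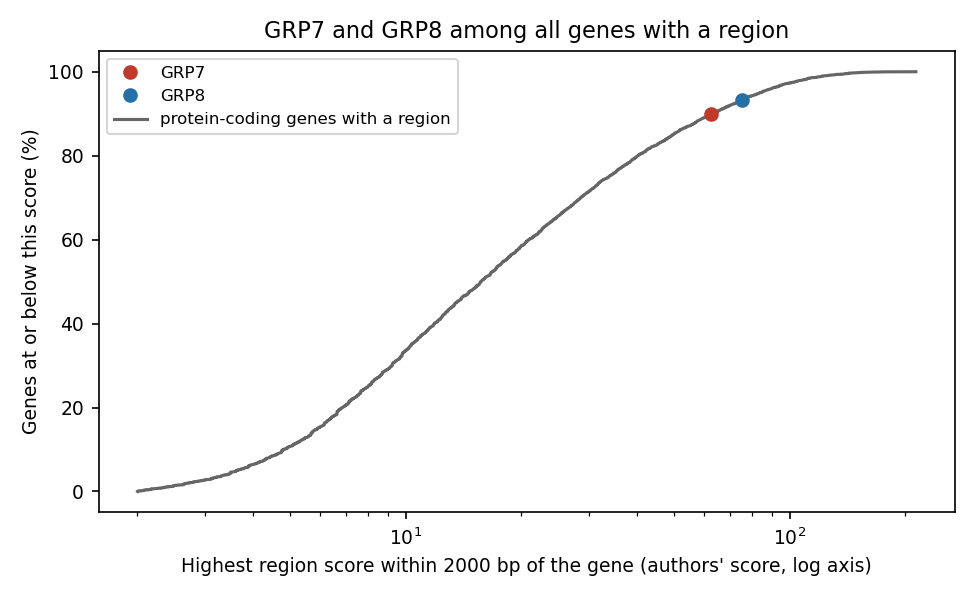
Cumulative share of the 14348 protein-coding genes with a region (y axis, percent) against the highest score within 2000 bp (x axis, authors' score, log axis). GRP7 at 62.5 and GRP8 at 75.0 lie on the upper part of the curve, at 89.9% and 93.3%.

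The genes differed in how many regions they had. A single region, as at GRP7, was the count at 28.7% of all genes. There were 4 or more regions at 3.46% of all genes, GRP8 among them. A region spanned an end of the gene at both GRP7 and GRP8, against 22.1% of all genes. At GRP8 different regions spanned both ends, which was so at 2.08% of all genes. The count at GRP8 was 3 with a window of 1000 bp or with regions within 200 bp merged. It was 2 with a window of 500 bp or where each region went to its nearest gene only. Spanning was looked at after the positions at GRP8 had been seen.

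The GRP8 midpoints were 1536, 753 and 450 bp apart along the chromosome. The window bounds these gaps, so they only describe the layout. The next midpoints were 14388 bp below and 6045 bp above GRP8, and they scored 8.30 and 7.83. At GRP7 the next midpoints lay 16612 bp below the gene, at a score of 39.5, and 24032 bp above it, at 3.94.

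Wider regions tend to score higher, so each region was set beside those whose width was within 10% of its own. At GRP7, 391 regions of like width had a median score of 51.4, and GRP7 was at the 63.0th percentile among them. The strongest GRP8 region was at the 93.1st percentile of 1207 such regions, whose median was 27.5. The GRP7 score was therefore ordinary for a region of its width, while the GRP8 score was high for its width. The weak regions at the lower-coordinate end of GRP8 and 825 bp beyond its higher-coordinate end were at the 3.73rd and 2.12th percentiles for their widths of 554 and 465 bp. The narrow region inside AT4G39270, 213 bp wide, was at the 88.3rd percentile for its width.

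**Figure D3:**
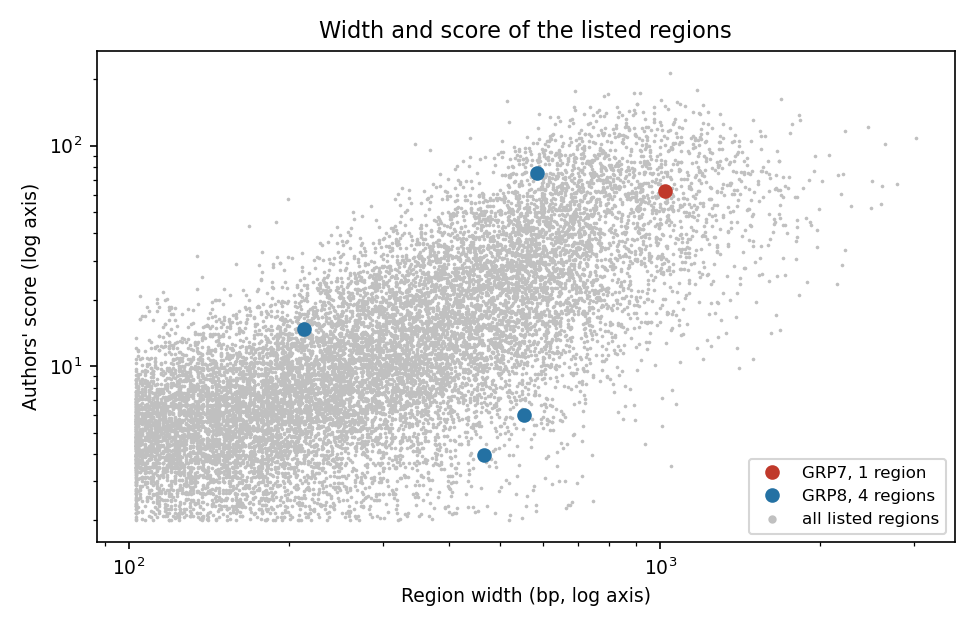
Width in bp (x axis, log axis) and authors' score (y axis, log axis) of all 14718 regions in grey, with the 1 region at GRP7 in red and the 4 at GRP8 in blue. The GRP7 region lies within the cloud for its width, the strongest GRP8 region lies near the upper edge, and the GRP8 regions scored 3.97 and 6.01 lie near the lower edge.

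All 5 regions were in the 2000 bp window of another protein-coding gene as well, and which gene a region acts on cannot be told from its position. The GRP7 region was shared with AT2G21680, whose near end was 1172 bp away and which had no other region. The GRP8 regions scored 75.0, 3.97 and 14.7 were shared with AT4G39270, which began 1094 bp from GRP8 and had 1 further region of its own. The GRP8 region scored 6.01 was shared with RL1, a MYB-type gene related to RADIALIS, and was the only one at that gene.

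Both loci carry a RADIALIS-like gene on the lower-coordinate side. At GRP8 it is RL1, next to the gene with a gap of 1699 bp. At GRP7 it is MEE3, also known as RL2, 4386 bp away, with AT2G21655 between them. MEE3 and AT2G21655 had no region within 2000 bp, while RL1 had the 1 region that it shares with GRP8. A missing entry in the list is not a measured absence of binding.

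In their own family, the highest scores were those of GRP8 and GRP7. The family list holds 10 genes of glycine-rich and related zinc-knuckle RNA-binding proteins, of which 5 had a region. Of the 8 other members, 3 had one (37.5%, against 52.3% of all genes), with a median top score of 36.5, against 15.7 over all genes with a region. GRP4, which encodes a protein of mitochondria, scored 41.0 at a region centred 124 bp outside the gene and had a second at 10.5. GRP2, likewise for a mitochondrial protein, scored 36.5 with the midpoint 200 bp inside an end. RZ-1A, a zinc-knuckle protein gene tied to cold responses, had a region of only 2.35, near the lowest score of the list. GR-RBP3, GR-RBP5, GR-RBP6, RZ-1B and RZ-1C had none within 2000 bp. None of the 8 reached the score of GRP7.

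Set beside the core clock, GRP7 and GRP8 lay within the score range of the evening complex genes and of the pseudo-response regulators. These ranges are wide and begin at 31.0 and 15.4. Over all genes with a region the median was 15.7 and the upper quartile 33.8, so lying within the ranges says little. The median was 76.1 for the evening complex genes, above both GRP7 and GRP8, and 60.4 for the pseudo-response regulators. The evening complex genes and their relative BOA had top scores of 91.2 (ELF3), 85.2 (BOA), 67.1 (LUX) and 31.0 (ELF4). The pseudo-response regulators had 93.8 (PRR3), 81.2 (PRR9), 60.4 (PRR5), 34.5 (PRR7) and 15.4 (TOC1). GRP8 came between PRR9 and LUX, and GRP7 between LUX and PRR5. With 1 library per genotype, neighbours in this order cannot be separated. All 9 of these genes had a region, against 52.3% of all genes. Both lists were added after results on these genes were known, so the count is a description.

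A list of 13 other clock output genes all had a region, against 52.3% of all genes. Their median top score was 54.6, against 15.7 over all genes with a region, with a range from 6.43 to 95.3. This list was put together with results on several of its members known, so its count is a description. Scores at or above that of GRP7 were found at 3 of the 13, against 5.29% of all genes. These were LHCB1.1 and LHCB1.3, which encode antenna proteins of photosystem II and share the region scored 95.3, and COR27, a night-phased clock regulator, at 75.8. The shared region counts for both LHCB1 genes. It was centred 1732 bp from an end of LHCB1.1 and 184 bp from an end of LHCB1.3, and was in the window of NRPA2 too. CCL, a clock-regulated gene named for its likeness to the CCR genes, followed at 60.7, just under GRP7. Its region was centred 95 bp inside an end of the gene.

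**Figure D4:**
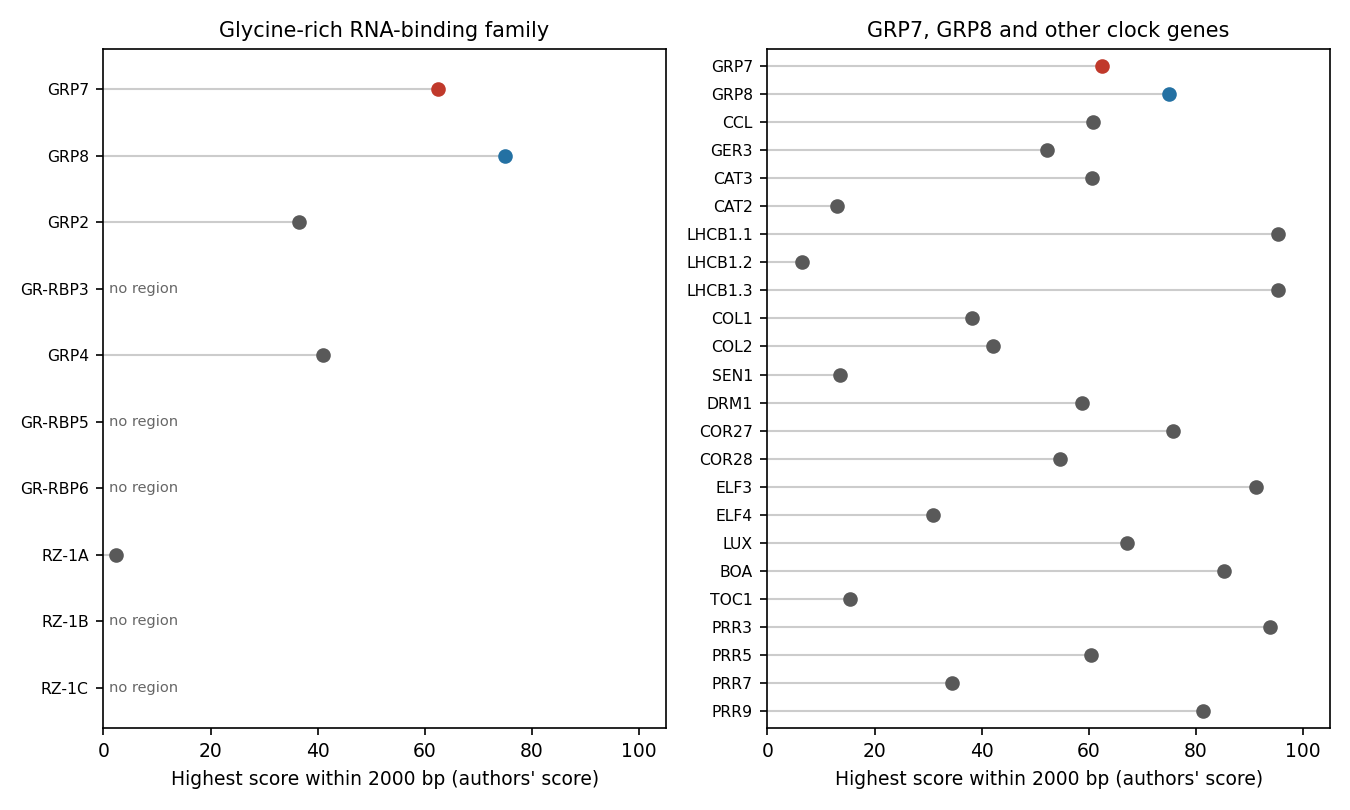
Highest score within 2000 bp (x axis, authors' score) for each gene of the glycine-rich family (left) and for GRP7 and GRP8 with clock output and core clock genes (right). Each point is 1 gene, and genes without a region are marked. GRP8 at 75.0 and GRP7 at 62.5 are the highest of the family. On the right, LHCB1.1, LHCB1.3, PRR3, ELF3, BOA, PRR9 and COR27 exceed both, and LUX also exceeds GRP7.

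Most genes of a list on RNA processing had no region within 2000 bp. The list of 20 covers the cap-binding complex, microRNA processing, nonsense-mediated decay, polypyrimidine tract binding proteins and other RNA processing factors. Of these, 6 had a region (30.0%, against 52.3% of all genes), with a median of 39.5, and none reached GRP7. With a window of 3000 bp the count was 12 of 20, where 60.3% of all genes had a region. The 4 highest scores of the list are named first. They include the 3 UPF genes of nonsense-mediated decay, the pathway that removes the alternative GRP7 transcript. Their scores were 57.4 for UPF1, 43.4 for UPF2 and 35.6 for UPF3. A region is found at 52.3% of all genes, and a link of these regions to that decay was not tested. CBP80 and CBP20 of the cap-binding complex had none, nor had SE and DCL1 of microRNA processing. HYL1 and PTB3 had 28.3 and 7.48. PTB1, a splicing regulator, had 49.1 at a region 1784 bp from an end and shared with MYB106. The strongest UPF regions were likewise each shared with a neighbouring gene. Their midpoints lay 423, 431 and 265 bp outside UPF1, UPF2 and UPF3. With each region given to its nearest gene only, 3 of the 20 genes had a region, against 34.4% of all genes. Not all 3 UPF genes were among them.

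In the autonomous pathway, whose RNA-binding and chromatin proteins lower FLC as GRP7 does, 2 of 7 genes had a region, against 52.3% of all genes. These were LD at 21.6 and FPA at 13.4. FLC itself scored 81.4, above both GRP7 and GRP8. Its region, on chromosome 5 from 3179054 to 3179889, had its midpoint 23 bp beyond an end of FLC. With FLC the list counts 3 of 8 genes, or 37.5%, and a median of 21.6, against 15.7 over all genes with a region. It counts 6 of 8 with a window of 3000 bp, where 60.3% of all genes had a region.

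Likeness to each gene was measured over 3 values, namely the number of regions, the top score and the distance of the nearest midpoint from a gene end. Each was turned into a percentile among the 14348 genes with a region, and the straight-line distance was taken in percentile points. Among genes that have a symbol, the nearest to GRP7 was LUX, of the evening complex, at 1.57, with 1 region scored 67.1 and centred 200 bp from an end. The measure does not hold on which side of the end a midpoint lies. That of LUX was outside the gene and that of GRP7 inside. DOG1, a regulator of seed dormancy, and the kinase gene PBL1 followed at 1.75 each. The nearest to GRP8 were the phospholipase gene PLDALPHA1 at 1.55, the nicotinamidase gene NIC2 at 1.91 and RAP2.7, an AP2-type floral repressor also called TOE1, at 2.77, each with 4 regions. GRP7 and GRP8 were 73.3 apart, and 9234 genes were nearer to GRP7 than GRP8 was. By this measure the 2 paralogues had like scores and unlike patterns, with 1 region in place of 4 and nearest midpoints 206 and 72 bp from an end. The difference in number rests on the weaker GRP8 regions. Among the 1000 strongest regions each gene had 1, which spanned its higher-coordinate end.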

How the data were processed

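ChIP-seq of wild-type and lhy-21 seedlings was deposited by the authors as 1 region list with coordinates and a score per region. The deposited score is used only to rank and describe regions within the list. The submitters' processing notes name the genome TAIR9 and the tools Bowtie and MACS2 (2.0.10.09132012). A region has more reads in wild type than in lhy-21, per the labels. The sources used here state no filter, threshold or read number, so depth is unknown, and regions missing from the list may lie below an unknown threshold.

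The midpoint of each region was compared with gene positions of the RefSeq table for TAIR10.1, whose nuclear sequence is that of TAIR9. Positions are counted from 1. All 60 listed loci were found among its 27444 nuclear protein-coding genes. A region counts for every gene whose window holds it. The assignment was tested on simulated data (Python 3.11.15, pandas 2.3.3).

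The members and lists were chosen with earlier results of these data known, and the evening complex and pseudo-response regulator lists were added afterwards. Named genes were both members, their neighbours, the family, the 4 highest of other lists and the 3 most alike to each member; other core clock genes were named as a whole list. With 1 library per genotype nothing was tested for significance. The planned motif search and sequences were left out, since genome sequence was not used here. Alternatives were other windows, overlap, merging, stricter score limits and the nearest gene only.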

Additional observations from a re-analysis of the deposited data

How the results depend on the processing

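The region at GRP7 and the top scores of both genes were the same under every alternative that gave a value. This was fixed in advance for GRP7, whose midpoint is inside the gene and whose region is among the 1000 strongest. The strongest GRP8 region likewise lies in every window but the gene body alone. Top scores were not evaluated under the stricter score limits. The number at GRP8 was 3 with a window of 1000 bp and with regions within 200 bp merged. It was 2 with a window of 500 bp, with regions above the median score and with the nearest gene only. With the strongest 10% or the 1000 strongest it was 1. For midpoints in the gene body alone, an alternative chosen after seeing the data, it was 0, with no top score. Percentiles for GRP7 were 91.7, 91.0 and 88.8 with windows of 500, 1000 and 3000 bp and 89.0 with any overlap. For GRP8 they were 94.5, 94.0, 92.6 and 92.7. The share of all genes with a region was 34.5% above the median score, 8.71% for the strongest 10%, 6.07% for the 1000 strongest and 34.4% with the nearest gene only. Under the strongest 10% and the 1000 strongest, the family counted 2 and 2 genes, RNA processing 2 and 0, the autonomous pathway with FLC 1 and 1, and clock output genes 8 and 6. RNA processing counted 12 with 3000 bp and 3 with the nearest gene only, and the autonomous pathway with FLC counted 6 with 3000 bp. Fewer regions or a different window make these counts differ by construction. Of 89 values, 60 stayed within the limits set. Those limits allowed a set fold change for counts and shares, and no change for top scores. For percentiles they were a 95% binomial interval over genes. A GRP8 count of 3 in place of 4 was within them, as was an RNA processing count of 9 in place of 6 with any overlap. The 60 is therefore not a measure of stability. The motif alternative was not run. No paired analysis was possible because each genotype had 1 library. Reads per library were not used here, so a score cannot be weighed by depth.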
